A study of Mus musculus with 2 samples.

Results

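Integrin subunit genes and their closest partners were followed across 2 cultures of mouse embryonic stem cells. The set held 37 of the 32285 genes listed. It was chosen by name: 27 integrin subunits (18 alpha and 9 beta) together with Cd44, Cd151, Sdc1, Sdc4, Ilk, Ptk2, Pxn, Tln1, Vcl and Zyx. The cells were of the R1 line and spent 72 hours in N2B27, a serum-free medium, before droplet single-cell RNA sequencing. The first culture, LB, received the cytokine LIF and the growth factor BMP4 and grew on gelatin. The second, LBPXRS, received LIF and BMP4 with 4 added compounds and grew on fibronectin. These compounds were PD0325901, which blocks the kinase MEK, Xav939, which blocks tankyrase in the WNT pathway, SB431542, which blocks the NODAL and activin receptors, and Resorcyclic lactone, for which the labels name no target. There was 1 library per condition, and differences are therefore given as sizes with counting intervals, without tests. The effects of the substrate and of the medium cannot be told apart.

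Integrins are cell surface receptors built from an alpha and a beta subunit, and the pair decides which matrix protein is bound. Alpha 5 with beta 1 is the classical fibronectin receptor, and alpha v pairs with several beta subunits to bind fibronectin and vitronectin. Alpha 3 and alpha 6 bind laminins, and alpha 6 pairs with beta 1 or beta 4. Inside the cell, talin and kindlins switch the receptor on, and a complex of proteins that includes vinculin, paxillin, zyxin and the kinase FAK joins it to actin. In embryonic stem cells, laminin and fibronectin receptors hold the cells to their matrix.

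LB gave 1783 kept cells with 45490517 UMIs (unique molecular identifiers, each marking a captured RNA molecule) and LBPXRS gave 2705 kept cells with 51832444. The median was 25418 UMIs per cell in LB and 19058 in LBPXRS. Levels are in CPM, the UMIs of a gene scaled so that its library sums to 1000000. Brackets hold exact 95% Poisson intervals, which cover counting error only and not the differences between cultures. The difference of a gene is the log2 ratio of LBPXRS to LB after 1 CPM is added to each, and a gene was called when this reached 1 in size, a 2-fold difference, with at least 5 CPM in either library. Over 12618 genes with a mean of at least 1 CPM the median log2 difference was -0.14, and with TMM scaling it was 0.0031, so differences of that size carry no direction. Genes on chromosome 8 had a median of -0.59 and those on chromosome 11 a median of -0.55. Itgb1 lies on the former, and Itga3, Itga2b, Itgae, Itgb3 and Itgb4 lie on the latter. Whether this shift plays a part in their values was not tested.

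The labelled cell type was checked against its markers. All 6 pluripotency markers were found in both libraries and had log2 differences above 0, with Nanog, Klf4 and Esrrb called higher in LBPXRS. Formative pluripotency markers summed to 159 CPM in LB and 43.8 CPM in LBPXRS. Of these, Dnmt3b (116 and 5.48 CPM) and Fgf5 (5.12 and 0.0193 CPM) were called lower, while Otx2 was at 37.8 and 38.3 CPM. Primitive endoderm markers summed to 7.19 and 2.49 CPM. LB also held RNA of primitive streak, mesoderm and trophoblast genes. Primitive streak markers summed to 132 CPM in LB and 1.68 CPM in LBPXRS, nascent mesoderm markers to 42.0 and 2.14 CPM, later and extraembryonic mesoderm markers to 91.9 and 0.270 CPM, and trophoblast markers to 238 and 18.3 CPM. Krt8 made up 188 CPM of the last sum in LB and 10.4 CPM in LBPXRS, and Cdx2 made up 45.2 and 0.0193 CPM. The remaining trophoblast markers went the other way: Gata3 was higher in LBPXRS (5.23 and 7.72 CPM) and Elf5 had 0 UMIs in LB and 5 in LBPXRS. Of 7 feeder fibroblast markers, Lum had no UMI in either library and the list summed to 14.2 CPM in LB and 4.51 CPM in LBPXRS. The leukocyte gene Ptprc had no UMI in either library, although the leukocyte list as a whole summed to 13.5 CPM in LB and 69.2 CPM in LBPXRS, of which Laptm5 made up 6.62 and 64.9 CPM. Platelet markers summed to 0.681 and 1.10 CPM, of which Itga2b, itself a member of the set, made up 0.659 and 1.04 CPM. Of the other platelet markers, Pf4 had 1 UMI in LB and 3 in LBPXRS, and Ppbp and Gp9 had 0 in both. The part of these other cell types in the values below was not tested, except where levels within marker-positive cells are given.

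Of the 37 genes, 15 reached 5 CPM in either library, 22 stayed below it in both, and 4 of those (Itga2, Itgax, Itgb2l and Itgb6) had no UMI at all. Among the 15, Itga6 and Sdc4 were called higher in LBPXRS and Itgb1, Itgb5, Ilk and Zyx were called lower. That is 2 higher and 4 lower of 15, while 8.25% of all 9721 genes tested were called higher and 11.1% lower. With TMM scaling 3 members were called higher and 3 lower, beside 10.5% and 8.68% of 9729 genes. The median log2 difference over the 20 members with a mean of at least 1 CPM was -0.21, and over the 10 integrin subunits among them -0.16, both close to the median of all genes. Members were thus called in both directions.

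**Figure D1:**
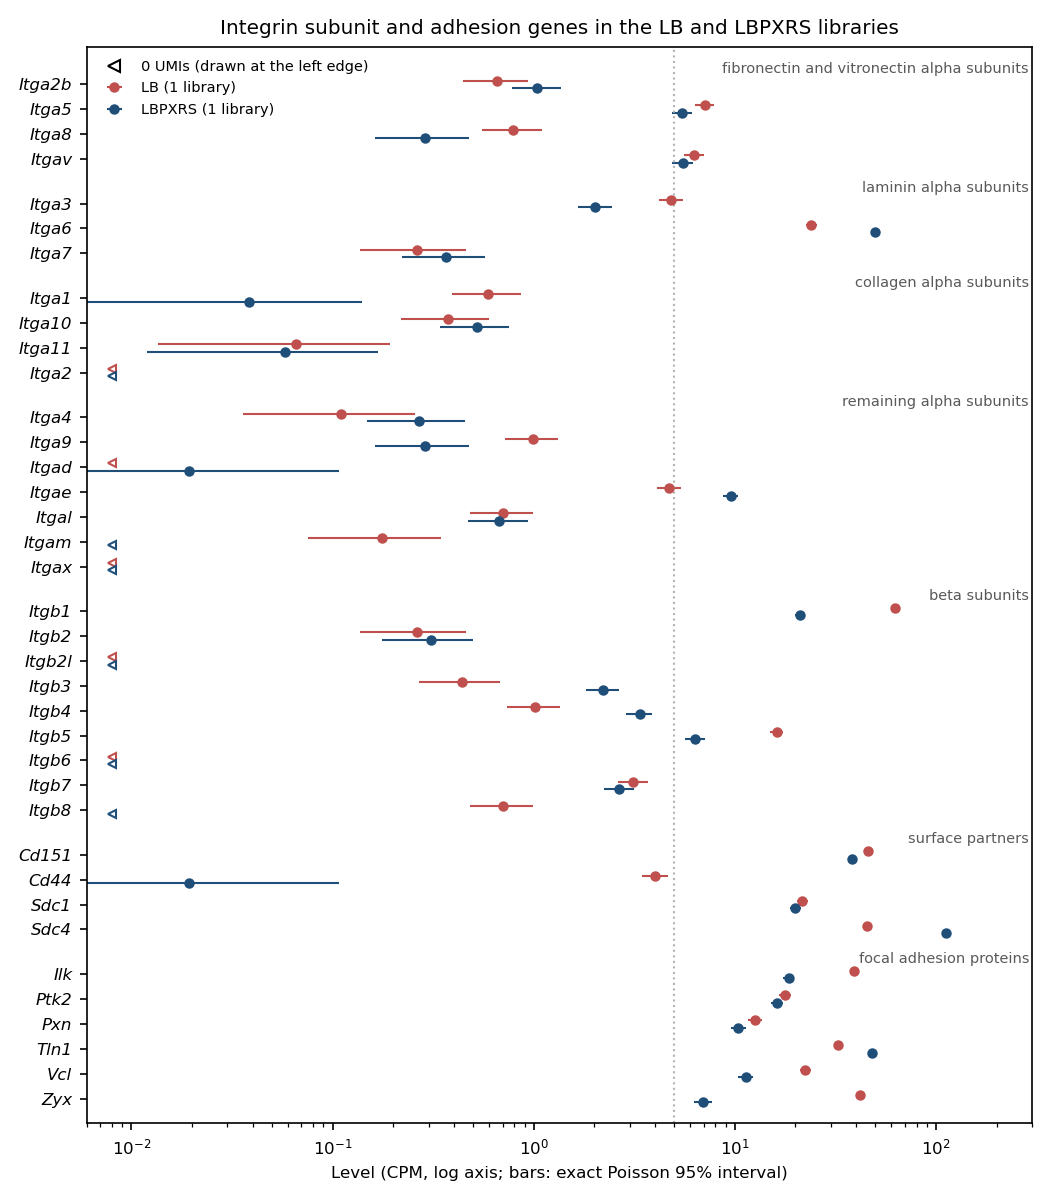
Level of all 37 members by role, in CPM on a log axis, in LB (gelatin, red) and LBPXRS (fibronectin, blue); points are sums over the kept cells of 1 library, bars are exact 95% Poisson intervals, open triangles at the left edge are genes with 0 UMIs, and the dotted line is at 5 CPM. Itgb1 leads in LB at 62.9 CPM and Sdc4 leads in LBPXRS at 112 CPM.

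The libraries had a different leading member. These 3′ UMIs count molecules and do not grow with transcript length, so CPM can be set side by side between genes. In LB the highest level was that of Itgb1, followed by Cd151, Sdc4, Zyx and Ilk, whose neighbouring intervals overlapped, then Tln1, and then Itga6, Vcl and Sdc1, which again overlapped. In LBPXRS the highest level was that of Sdc4, followed by Itga6 and Tln1, which overlapped, then Cd151, and then Itgb1, Sdc1 and Ilk, which overlapped. Zyx stood with Itgb5, Itgav and Itga5 at the lower end in LBPXRS.

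The laminin receptor subunit Itga6 (chr2:71745616-71858416, GRCm38) was the most abundant alpha subunit in both libraries. It was at 24.0 CPM in LB (22.6 to 25.5, 1092 UMIs) and at 49.5 CPM in LBPXRS (47.6 to 51.4, 2565 UMIs), 2.06-fold higher (1.92 to 2.21). The intervals of the libraries lay far apart. Its log2 difference of 1.01 was just past the threshold for a call, and with all deposited barcodes kept it fell short of it. A gene model on the same strand, Gm13663, overlaps Itga6 and went from 1.67 CPM in LB to 11.1 CPM in LBPXRS; how reads were divided between the overlapping models was not stated, so the level of Itga6 carries that uncertainty. Itga3, the other expressed laminin-binding subunit, went the other way, with 4.81 CPM in LB and 2.03 CPM in LBPXRS, and stayed below 5 CPM. Itga7 had 12 UMIs in LB and 19 in LBPXRS.

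Of the 4 alpha subunits that bind fibronectin and vitronectin, Itga5 and Itgav reached 5 CPM and neither was called. Itga5, the alpha chain of the classical fibronectin receptor, was at 7.10 CPM in LB (323 UMIs) and at 5.48 CPM in LBPXRS (284 UMIs), with a ratio of 0.772 (0.656 to 0.908) and a log2 difference of -0.32. Itgav was at 6.27 CPM in LB and 5.52 CPM in LBPXRS, a ratio of LBPXRS to LB of 0.881 (0.745 to 1.04), whose interval includes no difference. Itga8 had 36 UMIs in LB and 15 in LBPXRS, 2.73-fold lower (1.46 to 5.38), and Itga2b, the alpha chain of the platelet fibrinogen receptor, had 30 and 54.

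Of the collagen-binding alpha subunits none reached 1 CPM. Itga1 had 27 UMIs in LB and 2 in LBPXRS, 15.4-fold lower with a counting interval of 3.87 to 133; it shares its strand with the overlapping gene Pelo. Itga10 had 17 UMIs in LB and 27 in LBPXRS, Itga11 had 3 in each, and Itga2 had none. Among the remaining alpha subunits, Itgae, best known as the chain by which T cells hold to E-cadherin, stood out in level. It was at 4.70 CPM in LB (214 UMIs) and 9.53 CPM in LBPXRS (494 UMIs), 2.03-fold higher (1.72 to 2.39). With the pseudocount its log2 difference was 0.88 and no call was made, whereas with TMM scaling it was 1.02 and the gene was called. Haspin lies within Itgae on the opposite strand, with 13.9 CPM in LB and 10.6 CPM in LBPXRS, and whether counting used strand was not stated. Itga9 had 45 UMIs in LB and 15 in LBPXRS. Itgal and Itgam, chains of leukocyte integrins, had 32 and 8 UMIs in LB and 35 and 0 in LBPXRS, and Itga4 had 5 and 14. Itgad had 1 UMI, in LBPXRS.

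The beta subunits that led in LB were lower in LBPXRS. Itgb1 (chr8:128685654-128733200, GRCm38), the common partner of most alpha subunits, was at 62.9 CPM in LB (60.6 to 65.2, 2860 UMIs) and at 21.1 CPM in LBPXRS (19.9 to 22.4, 1096 UMIs). It was 2.97-fold lower in LBPXRS (2.77 to 3.19), with a log2 difference of -1.53 beside a chromosome 8 median of -0.59. The part of the chromosome in this value was not tested. Itgb5, which pairs with alpha v, was at 16.1 CPM in LB (734 UMIs) and at 6.35 CPM in LBPXRS (329 UMIs), 2.54-fold lower (2.23 to 2.90). Itgb8, another partner of alpha v, had 32 UMIs in LB and none in LBPXRS, with a lower limit of 9.33-fold by its counting interval.

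Other beta subunits were low but higher in LBPXRS. Itgb4, the laminin-binding partner of alpha 6, had 46 UMIs in LB (1.01 CPM) and 174 in LBPXRS (3.36 CPM), 3.32-fold higher (2.39 to 4.70). Itgb3, which pairs with alpha v and with Itga2b, had 20 UMIs in LB (0.440 CPM) and 114 in LBPXRS (2.20 CPM), 5.00-fold higher (3.09 to 8.50). Both stayed below 5 CPM, so neither was open to a call, and both are on chromosome 11, whose genes were lower on the whole. Itgb7 hardly differed, with 3.12 CPM in LB and 2.66 CPM in LBPXRS. Itgb2, the leukocyte beta chain, had 12 and 16 UMIs.

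**Figure D2:**
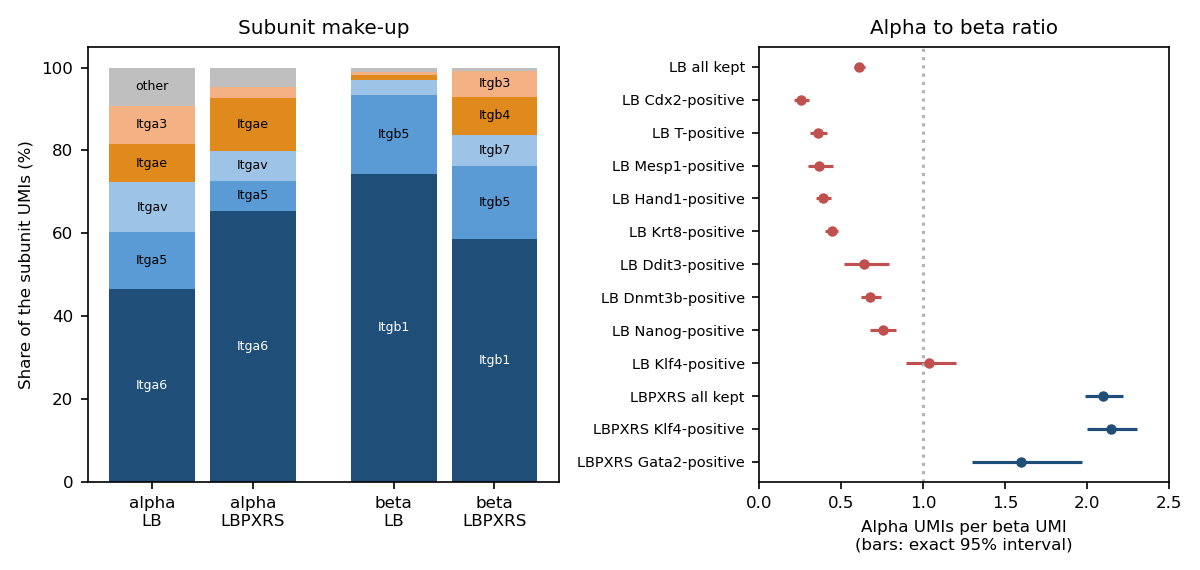
Left, each subunit as a percent of the alpha or beta subunit UMIs of a library (stacked bars); right, alpha subunit UMIs per beta subunit UMI in all kept cells and in marker-positive cells, with exact 95% intervals for counting error and a dotted line at 1. The ratio is 0.611 in LB and 2.10 in LBPXRS.

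The balance of alpha and beta transcripts differed between the cultures, with more beta than alpha UMIs in LB and more alpha than beta in LBPXRS. LB held 2348 alpha and 3846 beta subunit UMIs, or 0.611 alpha per beta (0.580 to 0.643), and LBPXRS held 3919 and 1867, or 2.10 (1.99 to 2.22). The ratio was 3.44 times as high in LBPXRS (3.19 to 3.71). Itga6 made up 46.5% of alpha UMIs in LB (44.5 to 48.5, Clopper-Pearson) and 65.5% in LBPXRS (63.9 to 66.9). Itgb1 made up 74.4% of beta UMIs in LB (73.0 to 75.7) and 58.7% in LBPXRS (56.4 to 60.9). With Itga6 and Itgb1 both left out, the ratio was 1.27 in LB and 1.76 in LBPXRS. Without the members on chromosomes 8 and 11 it was 2.05 in LB and 6.76 in LBPXRS. These are transcript ratios and say nothing of the receptors at the surface, where the chains are paired.

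Among the surface partners, Sdc4 and Cd44 differed most. Sdc4 (chr2:164424247-164443887, GRCm38), syndecan-4, is a heparan sulfate proteoglycan that binds fibronectin beside integrins. It was at 45.6 CPM in LB (43.7 to 47.6, 2074 UMIs) and at 112 CPM in LBPXRS (109 to 115, 5816 UMIs), 2.46-fold higher (2.34 to 2.59). Cd44, the hyaluronan receptor, had 182 UMIs in LB and 1 in LBPXRS. Scaled by depth this is 207-fold lower (36.8 to 8235). It was below 5 CPM in both libraries. The syndecan Sdc1 was at 21.6 CPM in LB (982 UMIs) and had 1035 UMIs in LBPXRS, a ratio of CPM of 0.925 (0.847 to 1.01), whose interval includes no difference. Cd151, a tetraspanin that associates with laminin-binding integrins, was at 45.8 CPM in LB and 38.0 CPM in LBPXRS.

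Focal adhesion proteins were unequal. Zyx (chr6:42349630-42360213, GRCm38), zyxin, a LIM protein of mature adhesions and stress fibres, was at 42.0 CPM in LB (40.2 to 44.0, 1912 UMIs) and at 6.95 CPM in LBPXRS (6.25 to 7.70, 360 UMIs). It was 6.05-fold lower in LBPXRS (5.40 to 6.79), the largest difference among the 15 members at 5 CPM or more. Ilk, the pseudokinase that ties beta 1 to parvins, was at 39.1 CPM in LB and 18.5 CPM in LBPXRS, 2.11-fold lower (1.95 to 2.29), a call that TMM scaling ended with a log2 difference of -0.89. Vcl, vinculin, went from 22.4 CPM in LB to 11.3 CPM in LBPXRS, 1.98-fold lower (1.78 to 2.19), just short of a call. Tln1, talin, went the other way, with 32.6 CPM in LB and 47.9 CPM in LBPXRS, 1.47-fold higher (1.38 to 1.57). Ptk2, which encodes FAK, and Pxn, paxillin, were at 17.8 and 12.6 CPM in LB and at 16.2 and 10.4 CPM in LBPXRS.

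Several of these genes overlap a neighbour on the opposite strand. The neighbours of Ilk are Taf10 and Rrp8, that of Vcl is Ap3m1, that of Tln1 is Creb3 and that of Zyx is Epha1. Epha1 went from 9.56 CPM in LB to 0.232 CPM in LBPXRS, the same direction as Zyx. If counting did not use strand, reads of such pairs cannot be told apart.

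**Figure D3:**
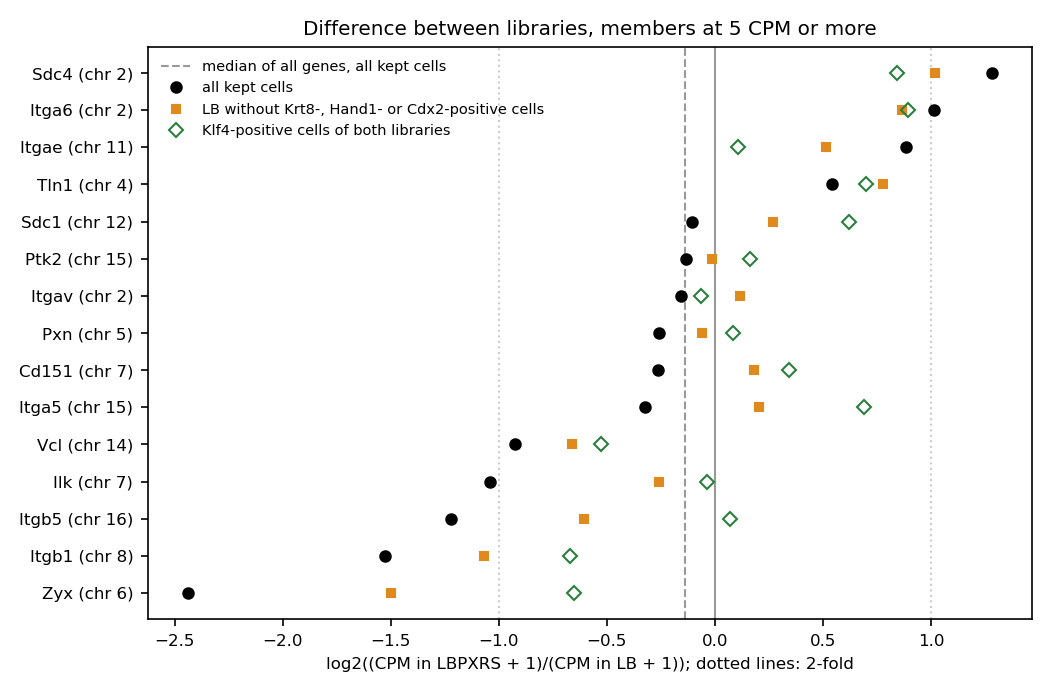
Log2 difference between LBPXRS and LB for the 15 members at 5 CPM or more, with a pseudocount of 1 CPM. Circles use all kept cells, squares use LB without cells positive for Krt8, Hand1 or Cdx2, and diamonds use Klf4-positive cells of both libraries. The values of Itga6 and Sdc4 remain above 0.8 and those of Itgb5 and Ilk lie near 0 among Klf4-positive cells.

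The libraries differ in which cells they hold, so levels were also compared within cells positive for a marker. All cells were drawn down to 5000 UMIs each, and a cell was called positive when at least 1 UMI of the marker remained. By this measure 15.4% of LB cells (267 of 1733) and 59.6% of LBPXRS cells (1561 of 2621) were positive for Klf4, a pluripotency factor. These cells had a median depth of 26841 UMIs in LB and 19126 in LBPXRS. The LB cells among them are not a pure class, since 28 were also positive for the epithelial keratin Krt8 and 15 for the mesoderm gene Hand1.

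Within Klf4-positive cells 0 of 16 members were called higher in LBPXRS and 0 lower, while 8.79% of all 9436 genes tested were called higher and 6.74% lower. Itga6 was at 26.9 CPM in LB and 50.8 CPM in LBPXRS, 1.89-fold higher (1.62 to 2.20), and Sdc4 was at 60.0 and 108 CPM, 1.81-fold higher (1.64 to 2.00). Both fell only a little short of the fold needed. Itgb1 was at 34.2 CPM in LB and 21.1 CPM in LBPXRS, a 1.62-fold difference against 2.97-fold in all cells. Zyx was at 11.5 and 6.97 CPM, a 1.65-fold difference against 6.05-fold. Itgb5 was at 5.97 and 6.32 CPM, a ratio of LBPXRS to LB of 1.06 (0.756 to 1.51), and Ilk at 19.6 and 19.1 CPM, a ratio of 0.974 (0.809 to 1.18); both intervals include no difference. Itgae was at 9.17 and 9.93 CPM.

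Other members differed in both directions. Itgb7 was at 5.42 CPM in LB and 2.53 CPM in LBPXRS, 2.14-fold lower before 1 CPM was added to each side, with a ratio of 0.468 (0.314 to 0.706), the largest fold among the 16. Vcl was 1.47-fold lower, with a ratio of 0.678 (0.555 to 0.833). Itga5 was at 3.33 CPM in LB and 5.99 CPM in LBPXRS, 1.80-fold higher (1.17 to 2.88), the opposite direction to that in all cells. Tln1 was at 29.3 and 48.2 CPM and Sdc1 at 12.1 and 19.1 CPM. The alpha to beta ratio was 1.04 in LB (0.894 to 1.20) and 2.15 in LBPXRS (2.00 to 2.31), still 2.07 times as high (1.76 to 2.44). When the 600 LB cells positive for Krt8, Hand1 or Cdx2 were left out, a choice made after the values were seen, Sdc4 remained called higher and Itgb1 and Zyx remained called lower, while the calls of Itga6 (log2 difference 0.87), Itgb5 (-0.60) and Ilk (-0.26) were lost. In that comparison 8.05% of all 9549 genes tested were called higher and 8.63% lower.

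Within LB, cells positive for Hand1, a gene of later and extraembryonic mesoderm, were compared with the other cells. In the 241 Hand1-positive cells 9 of 17 members were called higher (Itga3, Itga5, Itgb1, Itgb5, Cd44, Cd151, Sdc1, Ilk and Zyx) and 2 lower (Itgae and Sdc4), while 7.72% of all genes tested were called higher and 5.82% lower. A gene entered a split when it reached 5 CPM on either side, so some entered only through the side where they were high. Here these were Itga3 (11.5 against 3.67 CPM) and Cd44 on the positive side and Itgae (0.473 against 5.41 CPM) on the negative side. The median log2 difference was 0.97 over members and 0.16 over all genes. Itgb1 was at 111 CPM in these cells (103 to 119) and at 54.7 CPM in the others (52.4 to 57.0). Itgb5 was at 41.9 against 11.9 CPM, 3.53-fold higher, and Cd44 at 15.9 against 2.00 CPM, 7.95-fold higher (5.86 to 10.8). Itga6 was not among the genes called, with 17.8 against 24.9 CPM, a ratio of 0.715 (0.583 to 0.869).

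Cells positive for Krt8 or for Cdx2, a trophoblast and posterior mesoderm factor, shared calls with the Hand1 split. Of the 467 Krt8-positive cells 159 were also Hand1-positive, which is 66.0% of the Hand1-positive cells. Of the Cdx2-positive cells 63.3% were Krt8-positive and 46.1% Hand1-positive. These splits therefore share many cells. With Krt8, 8 of 17 members were called higher (Itga3, Itga5, Itgb1, Itgb5, Cd44, Cd151, Ilk and Zyx) and Itgae was called lower, against 6.42% and 3.95% of all genes. Of these, Itga3, Itga5 and Cd44 reached 5 CPM only on the positive side and Itgae only on the negative side. Zyx was at 89.7 CPM in Krt8-positive cells (84.5 to 95.1) and 24.0 CPM in Krt8-negative cells (22.4 to 25.8), 3.73-fold higher. Cd44 was 9.81-fold higher in them (6.81 to 14.4) and Itga3 4.23-fold (3.20 to 5.64). With Cdx2, 5 members were called higher (Itgb5, Cd44, Cd151, Ilk and Zyx) and 3 lower (Itga6, Itgae and Sdc4), against 5.89% and 5.67% of all genes. In that split Cd44 reached 5 CPM only on the positive side and Itgae only on the negative side. The 9 genes called higher with Hand1 include 8 of the 8 called higher with Krt8 and 5 of the 5 called higher with Cdx2. The same overlap was not counted over all genes, and with so many shared cells the splits do not back each other. Itga6 was at 9.13 CPM in the 180 Cdx2-positive cells and 25.6 CPM in the rest, 2.80-fold lower.

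**Figure D4:**
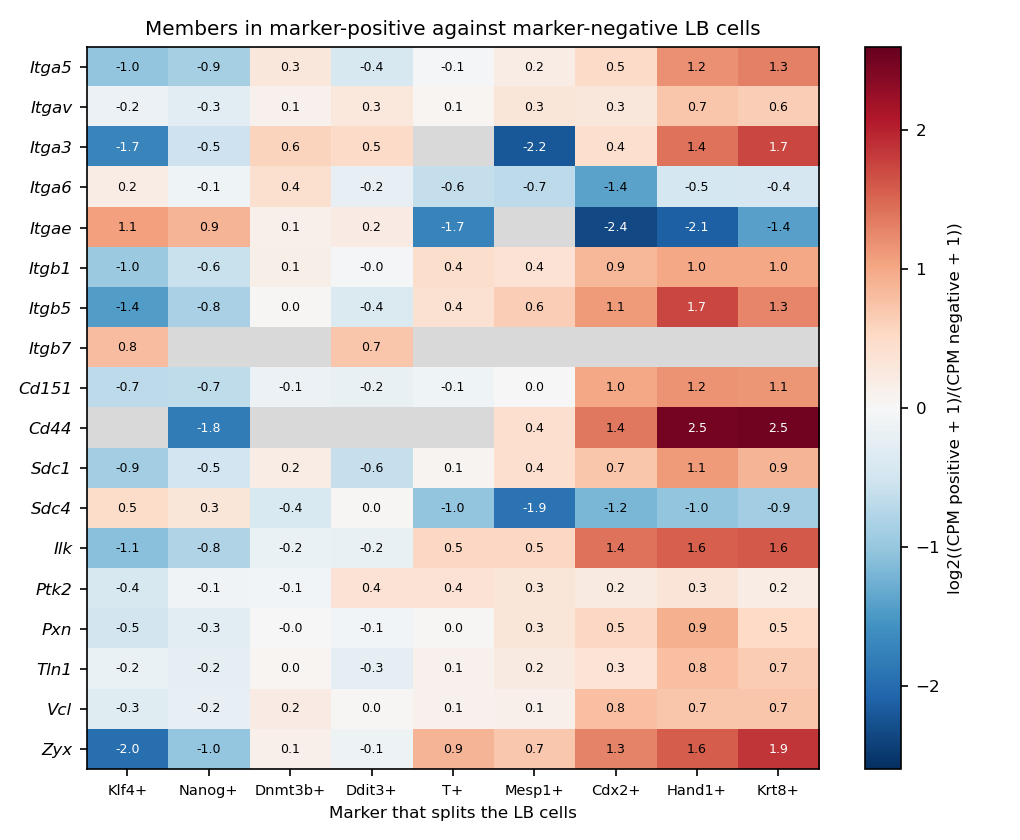
Log2 difference between marker-positive and marker-negative LB cells, with 1 CPM added to each side, for members (rows) and the markers that split the cells (columns); grey fields are members below 5 CPM on both sides of a split. Most members are higher in the Cdx2, Hand1 and Krt8 columns, where Itga6, Itgae and Sdc4 are lower.

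Cells positive for T, a primitive streak factor, and for Mesp1, a factor of nascent mesoderm, gave no higher call. With T, 0 of 15 members were called higher and Itgae and Sdc4 were called lower, against 4.09% and 4.32% of all genes. With Mesp1, 0 of 16 were called higher and Itga3 and Sdc4 were called lower, against 4.82% and 6.31%. Itgae in the T split and Itga3 in the Mesp1 split reached 5 CPM only on the negative side. Sdc4 was 3.99-fold lower in the 141 Mesp1-positive cells (37 UMIs, an interval of 8.47 to 16.6 CPM) than in the rest (46.0 to 50.2 CPM). Itga3 had 1 UMI in the Mesp1-positive cells and 215 in the others, while in Hand1-positive cells it was 3.13-fold higher than in the rest. The low Itgb8 had 22 of its 32 UMIs in the 310 T-positive cells, at 2.95 CPM (1.85 to 4.47) against 0.264 CPM (0.127 to 0.486).

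Klf4-positive LB cells were compared with the Klf4-negative ones. Of 17 members 1 was called higher (Itgae) and 5 lower (Itga3, Itga5, Itgb5, Ilk and Zyx), while 1.63% of all genes were called higher and 5.68% lower. Itgae reached 5 CPM only on the positive side, and Itga3 and Itga5 only on the negative side. All 6 called members had the opposite call in the Hand1 split, which divides the same cells: 15 of the 241 Hand1-positive cells were Klf4-positive, so the splits are not independent. How often all genes had opposite calls was not counted. Itgae was at 9.17 CPM in Klf4-positive LB cells (7.09 to 11.7) and at 3.88 CPM in the others (3.28 to 4.56). It had 3 UMIs in Hand1-positive cells and 1 in Cdx2-positive cells. Zyx was at 11.5 against 47.8 CPM, 4.15-fold lower in Klf4-positive cells. With Nanog, Cd44 and Zyx were called lower and no member higher, against 1.83% of all genes called either way. Cd44 reached 5 CPM only in the Nanog-negative cells. With Dnmt3b, a gene of formative pluripotency, 0 of 16 members were called, against 0.633%, and with the stress gene Ddit3 0 of 17 were called, against 0.983%.

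In LBPXRS no member was called in any marker split. Called either way were 0 of 15 members for each of Klf4, Nanog, Dnmt3b, Gata2 and Ddit3, against 0.1%, 0.112%, 1.85%, 1.51% and 0.0447% of all genes, so a count near 0 is what those shares give for so few members. Some members still had intervals that lay apart. Itgav was at 3.81 CPM in Ddit3-positive cells and 6.71 CPM in the others, a ratio of 0.568 (0.433 to 0.739). Sdc1 was 1.78-fold higher in Dnmt3b-positive cells (1.28 to 2.43), and Ilk had a ratio of 0.608 (0.446 to 0.811) in Gata2-positive cells. In the 218 cells positive for Gata2, Itga6 was at 35.9 CPM in them (30.4 to 42.0) and at 50.9 CPM in the others (48.9 to 53.0), and Sdc4 at 146 CPM (135 to 158) against 109 CPM (106 to 112).

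For Itgb1, Itga6, Sdc4 and Zyx the share of cells with a UMI went in the same direction as the level. After thinning, Itgb1 had at least 1 UMI in 26.2% of the cells from LB (24.1 to 28.3). In LBPXRS the share was 10.6% (9.49 to 11.9). Without thinning the shares were 68.5% and 29.9%. For Itga6 the thinned shares were 10.7% in LB and 23.2% in LBPXRS, for Sdc4 18.3% and 36.1%, and for Zyx 15.3% and 3.40%. Unthinned they were 40.5% and 56.8%, 47.2% and 65.4%, and 42.6% and 10.7%. The median depths were 25621 and 19311 UMIs. As a measure of free RNA, Hand1 was at 1.28 CPM in the 119 LB cells positive for both Klf4 and Nanog and at 84.1 CPM in the library, a share of 1.53% with an upper limit of 3.91%; these cells were chosen after their values were seen. At that share free RNA would give a UMI of Itgb1 in 0.479% of thinned LB cells, and at its upper limit in 1.22%. No such estimate was made for LBPXRS, so its shares stand without a background.

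Among the members at 5 CPM or more in a library, Sdc4 counts varied most between cells. The variance of its thinned counts was 2.12 times their mean in LBPXRS, with up to 17 UMIs in a cell, and 1.46 times in LB. For Itgb1 in LB it was 1.36 times, and for Itga6 it was 1.20 times in LB and 1.04 times in LBPXRS. A value of 1 is what counting alone gives, and the value can rise with the mean, which was highest for Sdc4 in LBPXRS (0.629 UMIs per thinned cell).

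**Figure D5:**
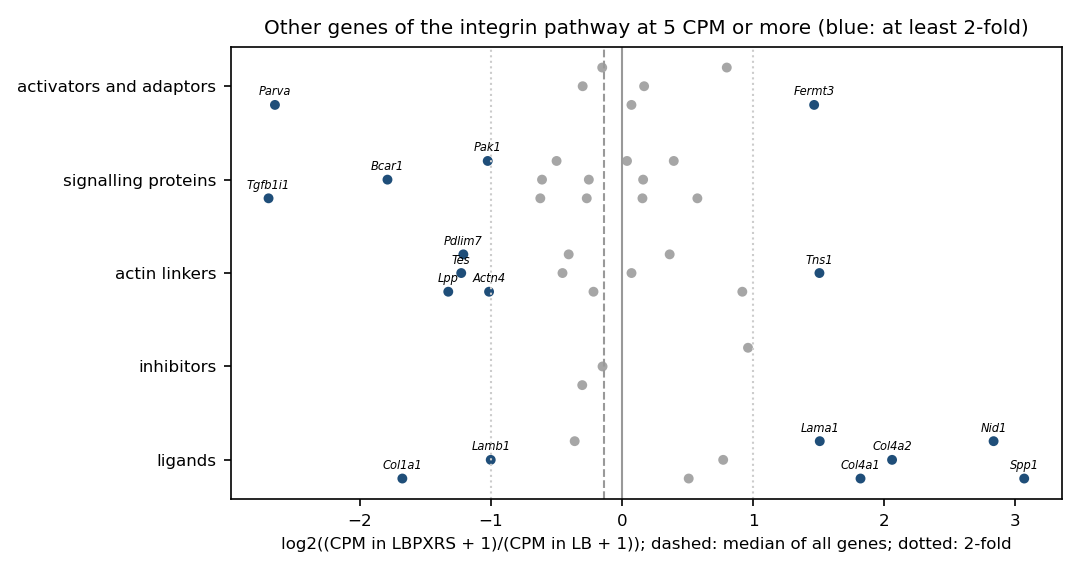
Log2 difference between LBPXRS and LB for the 44 other pathway genes at 5 CPM or more, by list, with 1 CPM added to each side; each point is a gene, blue and named where called, and its height within a list has no meaning. The dashed line is the median of all genes, the dotted lines mark 2-fold, and the ligands Spp1 and Nid1 lie farthest to the right and Parva and Tgfb1i1 farthest to the left.

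Other genes of the pathway were counted by list. Of 57 genes, 44 reached 5 CPM, and 7 of these were called higher in LBPXRS and 10 lower, beside 8.25% and 11.1% of all genes. With TMM scaling 9 were called higher and 7 lower, beside 10.5% and 8.68% of all genes: Enah and Itgb1bp1 were added, and Pak1, Actn4 and Lamb1 were lost. Among activators and adaptors 1 of 7 was called in each direction. Fermt3, the kindlin of blood cells, went from 6.33 CPM in LB to 19.2 CPM in LBPXRS, and Parva, the parvin that binds Ilk, from 8.29 to 0.482 CPM. Among signalling proteins 3 of 13 were called lower and none higher. They were the adaptor Bcar1 (3.78-fold lower, at 7.68 CPM in LBPXRS, on chromosome 8), the kinase Pak1 (18.6 to 8.64 CPM) and the paxillin relative Tgfb1i1 (7.61 to 0.328 CPM).

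Of 11 actin linkers 4 were called lower, namely the alpha-actinin Actn4 and the LIM proteins Tes, Lpp and Pdlim7, and Tns1, a tensin, was called higher. Lpp, a close relative of zyxin, went from 14.5 to 5.17 CPM and Tns1 from 3.91 to 12.9 CPM. None of 3 inhibitors was called, although Itgb1bp1, which binds the beta 1 tail, was at 26.6 CPM in LB and 52.7 CPM in LBPXRS (1.98-fold higher). Ligands were the list with the most calls, 5 of 10 higher and 2 lower. Spp1, osteopontin, went from 79.1 CPM in LB to 671 CPM in LBPXRS, and the basement membrane genes Nid1 (6.64 to 53.4 CPM), Lama1 (2.24 to 8.22 CPM), Col4a1 (9.47 to 35.9 CPM) and Col4a2 (4.46 to 21.8 CPM) were higher too. Col4a1 and Col4a2 are on chromosome 8, whose genes were lower on the whole. Lamb1 (16.2 to 7.60 CPM) and Col1a1 (7.80 to 1.76 CPM) were called lower.

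Promoter sequence was available for some of the genes that were lower in LBPXRS. RefSeq windows (GRCm38.p6) of the 250 bases before a transcript start were matched by symbol for 27 of the 37 members, which gave 31 windows. They were searched on both strands for the SRF CArG box, for the TEAD core GGAATG and for the AP-1 site TGANTCA. CArG matches were in 2 of the 31 windows (Itgb6 and Vcl) and in 1.47% of all 32851 windows, TEAD matches in 3 (Itga10, Itgb1 and Vcl) and in 12.6%, and AP-1 matches in 2 (Itgax and Zyx) and in 6.75%. The windows of Itgb1 (chr8:128685404-128685653, plus strand) and Vcl (chr14:20929148-20929397, plus strand), and 30 bases of that of Zyx (chr6:42349696-42349725, plus strand), are shown because these expressed genes were lower in LBPXRS and hold a match. They were chosen after the values were seen. Capitals mark the matches, which are matches of letters and not measured binding.

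Itgb1: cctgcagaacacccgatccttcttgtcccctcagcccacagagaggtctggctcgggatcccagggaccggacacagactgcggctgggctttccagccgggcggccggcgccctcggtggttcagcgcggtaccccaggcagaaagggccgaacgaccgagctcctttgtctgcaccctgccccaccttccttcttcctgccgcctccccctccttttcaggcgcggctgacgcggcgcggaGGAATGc
Vcl: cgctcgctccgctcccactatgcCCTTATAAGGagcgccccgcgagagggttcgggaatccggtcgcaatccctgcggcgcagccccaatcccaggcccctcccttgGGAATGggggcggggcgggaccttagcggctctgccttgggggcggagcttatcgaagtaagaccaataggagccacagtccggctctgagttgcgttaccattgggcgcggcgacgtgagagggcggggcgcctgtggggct
Zyx: agtgcggacagTGAGTCAgttctccagcac

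The Vcl window holds a CArG box at bases -227 to -218 and a TEAD core at -143 to -138 from the transcript start, the Itgb1 window a TEAD core at -7 to -2, and the Zyx stretch an AP-1 site at -121 to -115. For Zyx this is counted from a RefSeq start that lies downstream of the GENCODE gene start, so the stretch is inside the gene as given above.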

How the data were processed

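The deposited files hold raw UMI counts per gene and cell barcode, which the authors made in Cell Ranger (version 4.0.0 in the headers and in the submitters' processing notes, which also name mm10). The labels' protocols give 10x 3′ version 2 chemistry. The gene annotation and the cell calling settings are not given in the sources used here. Barcodes with under 1000 genes or over 10% mitochondrial UMIs were left out, 11.2% in LB and 13.1% in LBPXRS. Between the libraries 10 barcodes were shared, of 2008 and 3111. Scrublet in scanpy 1.11.5 marked 12 LB cells (0.673%) and 14 LBPXRS cells (0.518%), which were kept; so few marks mean that doublets may have been missed, and leaving out the marked cells is a weak check. UMIs were summed per library and scaled to CPM, with a pseudocount of 1. Medians use genes with a mean of at least 1 CPM. TMM factors came from edgeR 4.0.16, used for scaling only. Marker-positive cells needed at least 1 UMI after thinning to 5000 UMIs, which left out 50 LB and 84 LBPXRS cells, and a marker needed at least 50 positive cells. Free RNA was estimated with an upper limit from Hand1. Positions are from GENCODE M21 (GRCm38), matched by identifier, in which 37 of 37 members were found. The calling script was tested on simulated counts. Every member was to be named, with members at 5 CPM or more described singly and pathway genes named when called. The members, the lists and the markers were chosen with earlier results of these data known. Alternatives were other cell filters, TMM, another pseudocount, no filter on low values, means over cells, other marker rules and cell subsets.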

Additional observations from a re-analysis of the deposited data

How the results depend on the processing

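No paired analysis was possible because there was 1 library per condition. Beside 2 members called higher and 4 lower in LBPXRS, there was 1 higher with all deposited barcodes (Itga6 lost), and 4 higher and 5 lower with no filter on low values, which adds Itgb3, Itgb4 and Cd44. A pseudocount of 0.1 gave 3 and 4, adding Itgae. TMM scaling gave 3 and 3, adding Itgae and losing Ilk. Means over cells gave 2 and 4, with Itgae in place of Itga6. The share of all genes called was counted for TMM scaling, as given above, but not for the other settings named so far. Their counts therefore show only which member calls changed. Among Klf4-positive cells there were 0 higher and 0 lower, and the members' median log2 difference became 0.13, the subunits' median 0.11 and the difference of Itgb5 0.069. Without LB cells positive for Krt8, Hand1 or Cdx2 there were 1 higher and 2 lower (Itga6, Itgb5 and Ilk lost; 8.05% and 8.63% of all genes were called), with medians of 0.12 and 0.16; both subsets hold fewer LB cells, and the cause was not tested. In that subset the LB alpha to beta ratio was 0.814 and Itga6 made up 53.1% of alpha UMIs; among Klf4-positive LB cells the values were 1.04 and 52.6%, with Itgb1 at 69.1% of beta UMIs. Without chromosomes 8 and 11 the ratios were 2.05 in LB and 6.76 in LBPXRS. Summed over the markers, calls in LBPXRS were 0 either way, but 2 higher and 1 lower when positive cells needed 2 UMIs without thinning, and 2 higher with no filter. The shares of all genes called under these other marker rules were not counted. Over 10 alternatives Sdc4, Itgb1 and Zyx kept their direction, at 0.84 to 1.43, -1.57 to -0.67 and -2.58 to -0.65, and Itga6 ranged from 0.87 to 1.16. Depth limits the 22 members below 5 CPM in both libraries, which were not open to a call between libraries. At the lowest counts their folds carry wide intervals. Itga3 and Cd44 are among them, but reached 5 CPM on a side of some marker splits within LB and were called there.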

Other observations

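Within LB, pathway genes that are not members also differed in Hand1-positive cells. Of 12 actin linkers at 5 CPM or more, 5 were called higher there (Actn1, Csrp1, Fhl2, Lpp and Pdlim7), beside 7.72% of all genes called higher and 5.82% lower. Among ligands 3 of 10 were called higher (Col1a1, Col4a1 and Col4a2) and 1 lower (Spp1). Among signalling proteins 2 of 13 were called higher (Bcar1 and Tgfb1i1), among activators and adaptors 1 of 8 higher (Parva) and 1 lower (Fermt3), and none of 3 inhibitors was called. The values are descriptive, with 1 library and no replicate.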
